A study of Arabidopsis thaliana with 18 samples.

Results

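The genes described here had a high signal in control roots and a signal at least 16 times lower in control shoots of Arabidopsis thaliana. Their transcripts were followed in roots and shoots of plants treated with caesium or starved of potassium. A probe set, the group of short probes on the array that reports 1 transcript, was a member where its mean signal in control roots was at least 300 and at least 16 times its mean in control shoots. The 300 is in the deposited MAS5 signal, a linear brightness value scaled so that the mean of an array, after trimming 2% at each end, lay between 99.2 and 99.5. Of 22746 probe sets that are not array controls, 178 met both conditions. The rule leaves out AT3G13610 and gene symbols that start with UGT, CYP, GSTU, EXP, XTH or TBL. This removed AT3G13610, GSTU26, UGT71C1 and UGT76B1 and left 174 members. The annotation paired 85 members with 1 gene, 5 with several genes and 84 with none, so roughly as many members stay without a gene name here as carry one. Since control arrays chose the members, their difference between control roots and control shoots is a description only, and the tests below use the treated arrays.

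The arrays were Affymetrix ATH1 GeneChips, which carry biotin-labelled target from 1 sample each. All plants were of the Ws-2 accession at developmental stage 3.90, grown on agar with sucrose and dilute mineral salts at 22 °C. The 18 arrays form 6 groups of 3, which are caesium-treated roots, potassium-starved roots, control roots, caesium-treated shoots, potassium-starved shoots and control shoots. The sources used here give neither the caesium dose, nor how long the treatments lasted, nor how plants were deprived of potassium. The labels do not say whether the 3 replicates came from separate cultures, so the p-values cover only the scatter among these arrays, part or all of which may be technical.

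A root explores soil, takes up water and ions, and meets microbes, and many of its tissue-specific transcripts encode proteins that are secreted or act in the cell wall. Class III peroxidases are secreted haem enzymes that use hydrogen peroxide to couple phenolic compounds and cell wall proteins. Extensins are hydroxyproline-rich wall proteins that such enzymes can cross-link, germin-like proteins are wall glycoproteins, and dirigent proteins guide the coupling of lignin precursors. Potassium is the main inorganic cation of plant cells, and caesium is a chemically similar alkali metal that enters roots through potassium transport proteins.

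Control roots and control shoots chose the set, and its named members with the highest control root signal show what it holds. The defensin-like gene AT4G22212, whose family encodes small cysteine-rich peptides, had signals of 2565, 2662 and 3088 in control roots and 36.7, 15.7 and 15.2 in control shoots. AT1G26250, an extensin-like gene, had 2218, 2579 and 2608 in control roots and 10.6, 13.6 and 21.4 in control shoots. AT4G33720, of the CAP superfamily that includes the pathogenesis-related protein PR-1, averaged 2425 ± 440.3 in control roots and 11.1 ± 8.78 in control shoots (SD, n = 3 each). The others of the leading 10 were 4 class III peroxidases (AT5G19890, AT5G64100, AT4G30170 and AT3G01190), AT4G15390 of the BAHD-type acyltransferase family, AT3G54040 and AT4G39675.

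Families among the 90 members with at least 1 gene name were put together from gene names after the membership was known, and they are used as labels only. Class III peroxidases were the most frequent family, with 12 members, followed by 7 extensin or other hydroxyproline-rich proteins. A further 6 members were defensin, osmotin, chitinase or CAP genes, 8 encoded acyltransferases, oxidoreductases or a terpene synthase, and 4 each encoded proteases, lipid transfer proteins and C1-domain proteins. Smaller groups held 3 germin-like probe sets, 3 jacalin lectin or PYK10-type beta-glucosidase probe sets, 3 receptor-like kinases, 2 dirigent probe sets and 2 GDSL lipases. Of the gene lists set out for root functions, the class III peroxidase list had 19 named probe sets, 9 of them members. The lists for suberin, PYK10 and endoplasmic reticulum bodies, root hairs, root patterning and terpene clusters had 1, 4, 2, 3 and 1 named probe sets, none of them members. Only probe sets with 1 gene were counted. The PYK10 list also holds BGLU22 and BGLU21, whose shared probe set is a member and was left out of this count. The lists for aquaporins and for mineral uptake had 0 named probe sets and are not analysed here.

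Only members with a gene name could be placed in the genome, and the 84 without one were not. Among 95 loci placed on the RefSeq gene order of TAIR10.1, 2 neighbouring pairs were measured by separate probe sets. They were the extensin-like genes AT1G26240 and AT1G26250 and the jacalin lectin genes AT1G52050 and AT1G52060. Each of the 5 probe sets with several genes covered close neighbours, for example the germin-like genes AT5G38940 and AT5G38930 or the beta-glucosidase genes BGLU22 and BGLU21, so their signal cannot be split between the copies.

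Members close to the limits of the rule differed little from those left out. AT2G18980, AT2G42060 and AT5G07080 were just inside, at 16.2, 16.6 and 16.6 times the control shoot signal, and AT3G47210, AT3G18560 and AT4G08780 just outside, at 15.2, 15.1 and 14.8 times. By signal, AT2G42060, AT1G26240 and AT4G31875 were just inside, at 301, 308 and 311 in control roots, and TRI, AT5G22555 and AT1G30870 just outside, at 299.9, 291 and 289.

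The set kept its high level in the roots of treated plants. The median signal of the 174 members was 475, 582 and 552 in caesium-treated roots, 605, 681 and 679 in potassium-starved roots and 555, 677 and 650 in control roots. In shoots it was 14.4, 25.1 and 18.4 under caesium, 18.8, 29.0 and 19.6 under potassium starvation and 14.3, 17.8 and 12.2 in controls. Potassium-starved roots lay above caesium-treated roots on every array by this measure, and all root arrays lay far above all shoot arrays. Members held 3.86%, 4.78% and 4.45% of the summed signal of an array in caesium-treated roots, against 5.09%, 5.97% and 5.54% in potassium-starved roots and 4.56%, 5.29% and 5.13% in control roots. Bulk tissue was measured, so a lower share of the cells that hold a transcript and less transcript per cell cannot be told apart.

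**Figure D1:**
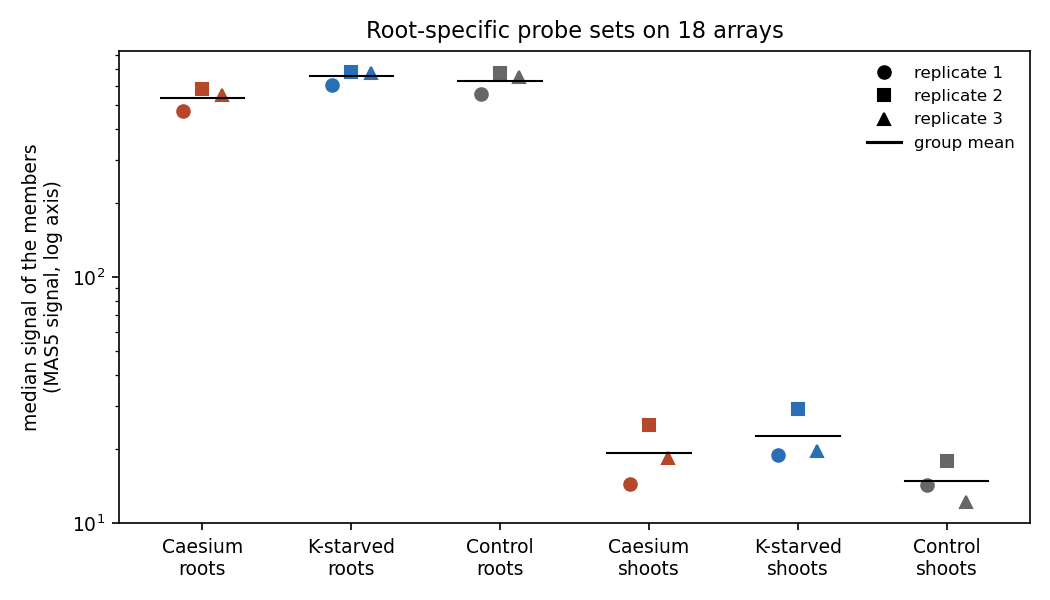
Median signal of the 174 root-specific probe sets on each of the 18 arrays (vertical axis, MAS5 signal on a log axis), with 1 symbol per replicate and a line at the group mean. Root arrays lie between 475 and 681 and shoot arrays between 12.2 and 29.0.

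Several features of the arrays move with these levels. Replicate 2 had the highest member median in every root and shoot group, and replicate 1 the lowest in every root group. Among shoots potassium-starved shoot replicate 2 stood furthest out, with members at 0.338% of the summed signal against 0.195% and 0.182% on the other 2 arrays of its group. The 6 photosynthesis genes of the green tissue list that had a named probe set summed to 327, 489 and 346 in caesium-treated roots, 195, 335 and 209 in potassium-starved roots and 154, 151 and 281 in control roots, against 8574 to 16012 on the shoot arrays. Their sum was 11389, 8574 and 10721 in potassium-starved shoots, lowest on replicate 2. The root sums of the treated groups overlapped by 1 array each. RCA, which encodes Rubisco activase, had 128, 186 and 129 in caesium-treated roots and 45.4, 113 and 56.2 in potassium-starved roots, and the light-harvesting gene LHCB4.2, the dimmest in roots, had 20.1, 28.8 and 17.9 in caesium-treated and 1.87, 4.47 and 6.30 in potassium-starved roots. The ratio of the 3' to the 5' actin control probe set, a sign of RNA quality, was 8.15, 5.45 and 6.67 in caesium-treated roots and 5.61, 5.54 and 3.95 in potassium-starved roots, which overlap. The same ratio for the GAPDH control was 1.18, 1.06 and 0.998 in caesium-treated roots and 0.869, 1.17 and 0.888 in potassium-starved roots, which also overlap. The part of these features in the results was not tested.

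The tissue difference that chose the members was present in both treatments, on arrays that the rule did not use. Differences between groups were fitted on log2 signal with limma across all probe sets, and a probe set was called at a Benjamini-Hochberg adjusted p under 0.05. Caesium-treated roots exceeded caesium-treated shoots for 174 of 174 members, where 26% of all 16397 tested probe sets were called higher and 21.3% lower. Potassium-starved roots exceeded potassium-starved shoots for 174 of 174 members, where 35.1% of all were called higher and 23.5% lower. The median log2 difference was 4.87 in caesium-treated and 4.96 in potassium-starved plants, and for all 174 members the 3 root arrays lay above the 3 shoot arrays in each treatment. Every member passed the filter on low signal through its root arrays, so these counts were bound to be high and describe how the tissue pattern held rather than support it.

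Shoot signals were often too low to have a level. For 54 members all 6 treated shoot arrays fell below the 40th percentile of their own array, and the shoot level of such members is known only as being below that limit. With each shoot array raised to its own 40th percentile, the median over members was 15.7-fold higher in roots under caesium and 18.7-fold higher under potassium starvation, where only members with raised shoot arrays give a lower bound. On that scale 158 and 160 members were at least 8-fold higher in roots, and the lowest were 4.38-fold under caesium and 2.14-fold under potassium starvation.

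Without a bound on low shoot signals, the named members with the largest mean tissue difference in treated plants were the peroxidases AT5G66390, AT3G01190 and AT5G17820, AT4G39675, and the C1-domain gene AT3G13760. AT3G01190 had signals of 1656, 1974 and 1489.8 in caesium-treated roots against 2.73, 14.8 and 3.16 in caesium-treated shoots. Its signals were 2065, 2554 and 1904 in potassium-starved roots against 2.08, 9.17 and 2.88 in potassium-starved shoots. All 6 treated shoot arrays were below the 40th percentile, and the bounded difference was at least 60.2-fold under caesium and at least 88.0-fold under potassium starvation. For the others, the bounds under caesium and potassium starvation were 20.5-fold and 23.0-fold for AT5G66390 and 24.7-fold and 30.4-fold for AT5G17820. They were 52.9-fold and 52.5-fold for AT4G39675. AT3G13760 had only 8.83-fold and 12.3-fold, below the medians over members, so its rank rests on shoot signals too low to have a level.

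The smallest mean log2 differences between treated roots and treated shoots were 2.52 for MSRB9, a methionine sulfoxide reductase that repairs oxidised methionine in proteins, 2.77 for AT1G01640, a BTB/POZ domain gene, and 2.92 for OSM34, an osmotin of the pathogenesis-related thaumatin-like proteins. AT3G14280 followed at 3.05 and the peroxidase gene Prx37 at 3.13. OSM34 had shoot signals of 275, 686 and 265 under caesium, 130.5, 689 and 219 under potassium starvation and 59.2, 154 and 21.9 in controls. Its caesium-treated and potassium-starved shoots overlapped fully, and in both the highest array was replicate 2.

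In roots the members were on balance lower under caesium than under potassium starvation. All 174 members were tested in the fit of the 9 root arrays, and 17 were called lower and 2 higher in caesium-treated than in potassium-starved roots. Over all 14432 tested probe sets, 2.27% were called lower and 2.27% higher, against 9.77% and 1.15% of the members. The median log2 difference of the members was -0.30, with the middle 50% between -0.65 and 0.09, and that of all tested probe sets was 0.04. Of the 174 members 118 were lower and 56 higher, called or not, so that 67.8% of members were lower against 45.8% of all tested probe sets. The 3 caesium-treated arrays lay entirely below the 3 potassium-starved arrays for 49 members (28.2%, against 13.8% of all tested probe sets) and entirely above for 11 (6.32%, against 16.3%).

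**Figure D2:**
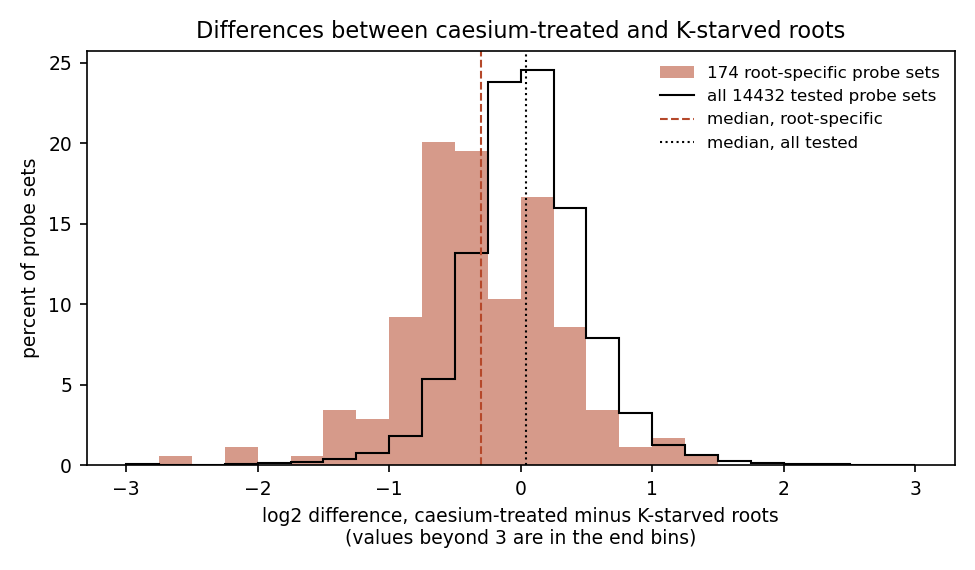
Distribution of the log2 difference between caesium-treated and potassium-starved roots (horizontal axis) in percent of probe sets (vertical axis), for the 174 root-specific probe sets (filled) and all 14432 tested probe sets (outline), with both medians. The median lies at -0.30 for the members and at 0.04 for all tested probe sets.

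The number of calls moved with single libraries. Leaving out caesium-treated root replicate 1 or 3 gave 7 and 8 called lower, and leaving out potassium-starved root replicate 2 or 3 gave 7 and 10. Calls over all tested probe sets dropped too, to 0.636%, 0.846%, 0.553% and 0.637% called lower in these 4 fits. The 2 calls of higher signal fell away without caesium-treated root replicate 1 or 3 or potassium-starved root replicate 3, with 1 left without caesium-treated root replicate 2 or potassium-starved root replicate 2 and 4 without control root replicate 1. The median stayed between -0.41 and -0.25 whichever root array was left out.

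The largest named fall was in AT5G48430, a gene of the aspartyl protease family of secreted protein-cleaving enzymes. Its signals were 323, 481 and 408 in caesium-treated roots, 1679, 1801 and 1582 in potassium-starved roots and 937, 768 and 772 in control roots. The 3 groups did not overlap, with control roots between the treated groups. It fell by 2.08 ± 0.16 on the log2 scale (SE, limma adjusted p = 0.000247, n = 3 per group) in caesium-treated against potassium-starved roots, and the call held under all 18 alternatives, at adjusted p from 2.91e-05 to 0.00435. A second aspartyl protease gene, AT3G51330, had 309, 385 and 389 in caesium-treated roots, 842, 641 and 610.4 in potassium-starved roots and 558, 521 and 574 in control roots. It fell by 0.94 ± 0.16 (limma adjusted p = 0.0142), again without overlap between the 3 groups, but the adjusted p was 0.0558 without caesium-treated root replicate 1 and 0.339 with all 18 arrays in 1 fit. The other proteases of the set, the subtilase SBT4.12 and the cysteine protease AT3G19390, differed by 0.28 ± 0.25 and 0.04 ± 0.21 and were not called.

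Peroxidases were the family with the most members, and 2 of the 12 were called lower and 0 higher. AT3G03670 had 510.3, 681 and 596 in caesium-treated roots, 1500.2, 1739.5 and 1662 in potassium-starved roots and 1122, 679 and 919 in control roots. Caesium-treated and potassium-starved roots did not overlap, and control roots lay between them except for 1 array at the level of the highest caesium-treated array. AT3G03670 fell by 1.46 ± 0.19 on the log2 scale (limma adjusted p = 0.00388), a call kept under all 18 alternatives, at adjusted p from 0.00032 to 0.0408. AT5G64100 had 1283, 1821 and 1464 in caesium-treated roots and 2174, 3187 and 2438 in potassium-starved roots, with 1646, 2102 and 1689 in control roots. It fell by 0.77 ± 0.18 (limma adjusted p = 0.0387), and the adjusted p ran from 0.00474 to 0.744 over the alternatives. It passed 0.05 without caesium-treated root replicate 1 (0.145) or 3 (0.105) or control root replicate 3 (0.051). The same held without potassium-starved root replicate 2 (0.118) or 3 (0.0974) and with no filter (0.0791). It was highest with all 18 arrays in 1 fit.

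The remaining 10 peroxidases ranged from -0.68 to 0.29 and none was called. AT5G19890, with 1814, 1736 and 1453 in caesium-treated roots and 2474, 3334 and 2285 in potassium-starved roots, differed by -0.68 ± 0.19 (limma adjusted p = 0.0671). AT4G33420 differed by -0.62 ± 0.16 (limma adjusted p = 0.0553). AT4G30170, the member at the upper end, had 1789, 1895 and 1794 in caesium-treated roots and 1678, 1514 and 1313 in potassium-starved roots, a difference of 0.29 ± 0.13 (limma adjusted p = 0.206). The family's median was -0.28, with 9 of 12 lower. The peroxidase list, which includes non-members, holds 9 of the 12 and leaves out AT5G19890, AT4G33420 and Prx37, all of them lower. In that list 18 probe sets were tested, 3 were called lower and 0 higher. The median of the list was 0.04, the same as over all tested probe sets, with 8 of the 18 lower. Its tested non-members ranged from -0.74 for AT4G11290 to 1.68 for AT3G49960. The third called there was AT4G11290, which is not a member and differed by -0.74 ± 0.17 (limma adjusted p = 0.0361).

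Acyltransferase and oxidoreductase genes gave both called and flat members. AT5G07080, a BAHD-type acyltransferase family gene, had 127, 310.1 and 316 in caesium-treated roots, 536, 583 and 546 in potassium-starved roots and 402, 341 and 445 in control roots, with no overlap between the 3 groups. It fell by 1.26 ± 0.30 in caesium-treated against potassium-starved roots (limma adjusted p = 0.0401), with 1 caesium-treated array far below the other 2. Its adjusted p was 0.0577 without caesium-treated root replicate 3, 0.0506 without control root replicate 3 and 0.0612 with no filter. Without potassium-starved root replicates 1, 2 and 3 it was 0.062, 0.118 and 0.108. The probe set shared by the berberine bridge enzyme-like genes AT1G30730 and AT1G30720 had 233, 331 and 362 in caesium-treated roots and 598, 857 and 781 in potassium-starved roots and was called at -1.28 ± 0.22 (limma adjusted p = 0.0154). It has 2 genes, lies outside the rule for named genes and was picked after its values were seen. AT4G15390, the acyltransferase family gene with the higher control root signal, had 2300.0, 2225 and 1977 in caesium-treated roots and 3017, 3156 and 2605 in potassium-starved roots, which do not overlap, and differed by -0.43 ± 0.13 (limma adjusted p = 0.073). MSRB9 was level in roots, at 2084, 1858 and 1589 under caesium and 1929.8, 1995 and 1569 under potassium starvation, a difference of 0.01 ± 0.15.

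Signalling genes contributed a receptor kinase and a ubiquitin ligase of the RING finger type. AT5G59680, a leucine-rich repeat receptor-like kinase gene, had 328, 414 and 401 in caesium-treated roots, 613, 749.7 and 674 in potassium-starved roots and 718, 477 and 746 in control roots. It fell by 0.84 ± 0.19 (limma adjusted p = 0.0338), with the control roots spread across the potassium-starved range and below it. The other receptor-like kinase members, AT1G61590 and AT3G46280, differed in sign, at -0.73 and 0.55, and were not called. AT1G72200, which encodes a RING finger protein of the ATL type, had 168, 243 and 212 in caesium-treated roots, 491, 322 and 322 in potassium-starved roots and 356, 359 and 348 in control roots. It fell by 0.85 ± 0.20 (limma adjusted p = 0.0361), with control and potassium-starved roots overlapping. Both calls were lost in 7 of 18 alternatives. For AT5G59680 these included leaving out caesium-treated root replicate 1 (0.132), 2 (0.0504) or 3 (0.086) or potassium-starved root replicate 2 (0.11) or 3 (0.102), and fitting all 18 arrays together (0.391). For AT1G72200 they included leaving out caesium-treated root replicate 1 (0.14) or 3 (0.0914) or potassium-starved root replicate 1 (0.0673), 2 (0.07) or 3 (0.0787), all as adjusted p.

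A further 2 called members carry a gene identifier with no role given here. AT2G37750 had 653, 938 and 713 in caesium-treated roots, 1399.9, 2146 and 1339 in potassium-starved roots and 976, 988 and 1183 in control roots, and fell by 1.07 ± 0.20 (limma adjusted p = 0.0199). AT4G39675 had 1346, 1689 and 1448 in caesium-treated roots, 2172, 2726 and 2200.3 in potassium-starved roots and 1897, 2034 and 2038 in control roots, and fell by 0.66 ± 0.14 (limma adjusted p = 0.0256). In both, the 3 groups stood in the same order without overlap, potassium-starved highest and caesium-treated lowest. AT2G37750 missed the threshold without caesium-treated root replicate 1 (adjusted p = 0.0807) or 3 (0.0698) or potassium-starved root replicate 2 (0.062) and with all 18 arrays in 1 fit (0.11). AT4G39675 missed it without caesium-treated root replicate 1 (adjusted p = 0.0954) or 3 (0.0806) or potassium-starved root replicate 2 (0.0748) or 3 (0.0665), with no filter (0.0597) and with all 18 arrays in 1 fit (0.851).

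The opposite change was rare. PDF2.5, a plant defensin gene, had 559, 368 and 414 in caesium-treated roots, 211, 257 and 193 in potassium-starved roots and 389.7, 374 and 289 in control roots. It rose by 1.01 ± 0.20 on the log2 scale (limma adjusted p = 0.0216) in caesium-treated against potassium-starved roots, and every control root array lay above every potassium-starved one. The call was lost on leaving out caesium-treated root replicate 1 (adjusted p = 0.0807) or 3 (0.0623), or potassium-starved root replicate 3 (0.0841), and with all 18 arrays in 1 fit (0.188). The other called rise was in a probe set without a gene name, 251226_at, with 269, 384 and 331 in caesium-treated roots, 192, 163 and 126 in potassium-starved roots and 585, 544 and 393 in control roots. It differed by 1.04, was picked after its values were seen, and lay below the control roots in both treated groups.

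**Figure D3:**
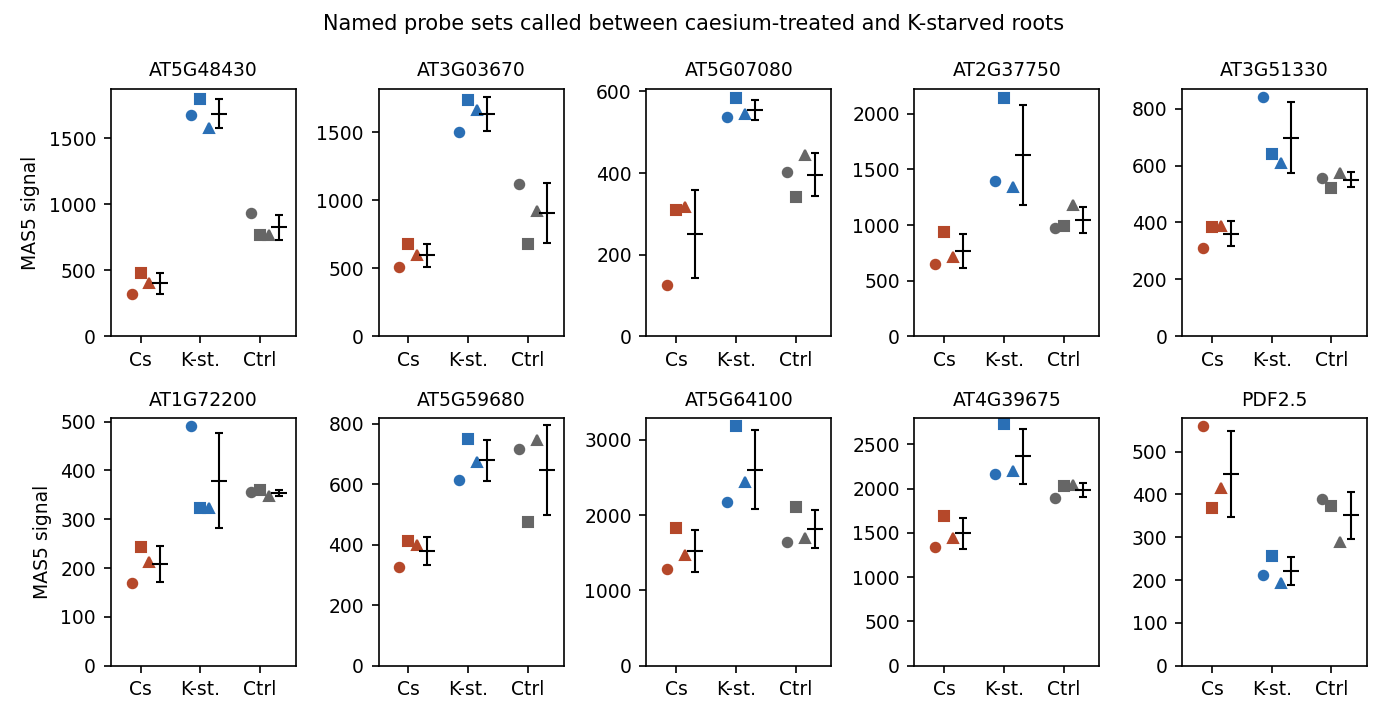
Linear MAS5 signal (vertical axes, each from 0) of the 10 named members called between caesium-treated (Cs) and potassium-starved (K-st.) roots, with control roots (Ctrl) beside them. Circles, squares and triangles are replicates 1, 2 and 3, and the bar is mean ± SD (n = 3). The first 9 are lower in caesium-treated roots on every array, and PDF2.5 is higher.

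Probe sets without a gene name held the largest called fall. The probe set 254550_at, which lies outside the rule for named genes and was picked after its values were seen, had 159, 686 and 347 in caesium-treated roots, 2032, 2289 and 1985 in potassium-starved roots and 459.7, 1004 and 986 in control roots. It differed by -2.64 on the log2 scale. Likewise 251545_at had 191, 303 and 271 in caesium-treated roots, 1148, 1008 and 905 in potassium-starved roots and 427, 358 and 571 in control roots, a difference of -2.02. In each, the 3 potassium-starved arrays stood above all others. The potassium-starved arrays were also the highest for 262133_at and 247333_at, with differences of -1.17 and -1.03, while 255105_at (-1.40) had 109.8, 146 and 117 in caesium-treated roots and overlapping values in potassium-starved and control roots, at 429, 292 and 274 and at 423, 262 and 416.

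In some families all members lay on one side without any being called. All 4 C1-domain genes, which carry cysteine-rich zinc-binding domains, were lower in caesium-treated roots, with a median of -0.90 and a range from -1.19 to -0.28. AT2G42060 had 149, 294 and 285 in caesium-treated roots, 323, 666 and 684 in potassium-starved roots and 280.4, 344 and 279 in control roots, a difference of -1.19 ± 0.32 (limma adjusted p = 0.0578). AT5G43520 differed by -1.01 ± 0.42, and its replicate 1 was the lowest array of each group at 209, 482 and 397. The 3 germin-like probe sets had a median of -0.37, and all 3 were lower. The largest of these differences, -0.71 ± 0.40 in AT3G05950, came with overlapping groups, at 365, 939.6 and 556 in caesium-treated and 1448, 801 and 723 in potassium-starved roots.

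Other families leaned the other way or neither way, again with few or no calls. The 7 extensin or hydroxyproline-rich members had a median of 0.19, with 2 of 7 lower and 0 called. The 2 adjacent extensin-like genes differed in sign, with 0.36 ± 0.34 for AT1G26240 and -0.28 ± 0.17 for AT1G26250, and neither was called, and AT1G26240 turned lower with array weights or without potassium-starved root replicate 1. The jacalin lectin genes AT1G52050 and AT1G52060 and the shared BGLU22 and BGLU21 probe set were higher in 3 of 3 cases, at 0.06, 0.60 and 0.22, though AT1G52050 turned lower when arrays were set to a common median, and without caesium-treated root replicate 2 or potassium-starved root replicate 3. The defensin, osmotin, chitinase or CAP group had a median of 0.00, which turned to -0.08 with a common median and to -0.02 with a pseudocount, and PDF2.5 was its 1 call. AT2G43610, of the chitinase family of chitin-cleaving enzymes, had 1095, 2237 and 1974 in caesium-treated roots against 1032, 974 and 1021 in potassium-starved roots. The caesium-treated arrays lay above, and the difference of 0.75 ± 0.38 was not called (limma adjusted p = 0.253). The 2 GDSL lipase genes were at 0.27 and 0.38 the 2 dirigent probe sets at -0.06 and 0.50, and the 4 lipid transfer probe sets at -0.34 to 0.41, without a call.

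Members varied more between replicates than other probe sets did. The median SD of log2 signal among the 3 arrays of a group was 0.29 for members and 0.21 for all tested probe sets in caesium-treated roots, 0.33 and 0.23 in potassium-starved roots, and 0.33 and 0.23 in control roots. AT4G07820, a CAP superfamily gene, had 381, 1047 and 1111 in caesium-treated roots, 98.3, 2392 and 1672 in potassium-starved roots and 162, 2141 and 307 in control roots. AT2G21045, which encodes the arsenate reductase HAC1, had 569.6, 1652 and 1378 in caesium-treated roots, 383, 2500.1 and 2415 in potassium-starved roots and 279.6, 2101 and 843 in control roots. In both genes replicate 1 was the lowest array of every root group.

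The extensin-like genes AT3G28550 and AT4G08380 spread differently. AT3G28550 had 278, 79.1 and 123 in caesium-treated roots, 194, 40.9 and 25.0 in potassium-starved roots and 729.9, 58.4 and 454 in control roots, so that it met the rule through 2 of 3 control arrays. AT4G08380 had 269, 192 and 314 in caesium-treated roots, 974, 649 and 946 in potassium-starved roots and 1089, 163 and 968 in control roots. Its caesium-treated and potassium-starved arrays did not overlap, while 1 control array stood at 163, far below the other two, and the difference of -1.73 ± 0.57 was not called (limma adjusted p = 0.101).

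**Figure D4:**
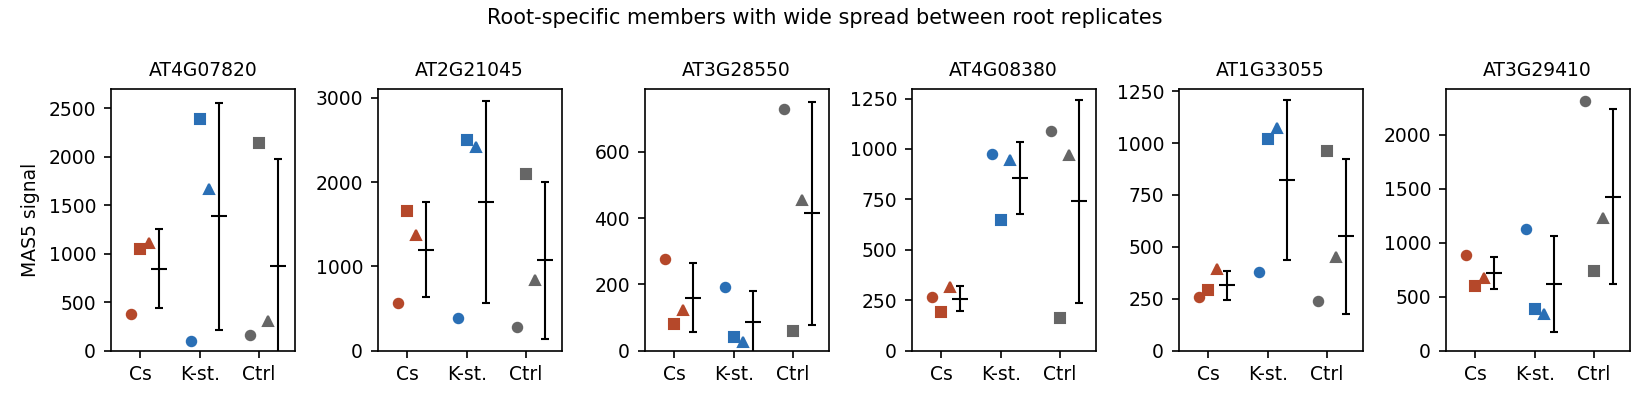
Linear MAS5 signal (vertical axes, each from 0) of 6 named members with the widest mean SD of log2 signal within root groups, in caesium-treated (Cs), potassium-starved (K-st.) and control (Ctrl) roots. Circles, squares and triangles are replicates 1, 2 and 3, and the bar is mean ± SD (n = 3), cut off at 0. AT4G07820 spans 98.3 to 2392 within potassium-starved roots.

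Both treatments were set beside control roots as values only, since a high control root signal chose the members and by itself favours lower signals elsewhere, and since both share the same 3 control arrays. Caesium-treated roots had a median log2 difference from control roots of -0.20 over the members, with 49 higher and 125 lower, where the median over all tested probe sets was 0.01. Potassium-starved roots had a median of 0.13, with 100 higher and 74 lower, where the median over all tested probe sets was -0.03. With quantile normalization the potassium-starved median of the members was 0.03, with 90 higher and 84 lower. Leaving out 1 array it ran from 0.001 to 0.26, and the caesium-treated median from -0.27 to -0.11. AT5G48430 stood at -1.04 under caesium and 1.04 under potassium starvation, AT3G03670 at -0.59 and 0.88, and 254550_at at -1.20 and 1.45. PDF2.5 stood at 0.34 under caesium and -0.67 under potassium starvation. AT1G72200 and AT5G59680 stood at -0.79 and -0.74 under caesium, with 0.07 and 0.09 under potassium starvation. The terpene synthase family gene AT3G29410 was lower than in control roots in both, at -0.85 and -1.27, with signals of 883, 599.9 and 673 in caesium-treated roots, 1130.4, 385 and 342 in potassium-starved roots and 2318, 736 and 1226 in control roots. OSM34 was higher in both, at 0.42 and 0.79, with signals of 1950.2, 2342 and 2049 in caesium-treated roots, 2513, 2913 and 2741 in potassium-starved roots and 1378, 1445 and 1949.7 in control roots.

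In shoots most members were too dim to compare. Only 78 of the 174 passed the filter on low signal in the 9 shoot arrays, a part selected by having some shoot signal. Control shoots were low by the rule, so some passed mainly through 1 treated group, which by itself favours higher values there. For 266330_at, called lower, no potassium-starved and all 3 caesium-treated arrays were below the 40th percentile. The reverse held for 260693_at, which was not called. Such members were not counted, and the counts and median below are partly set by the filter. In caesium-treated against potassium-starved shoots 7 of the 78 were called lower and 1 higher, where 8.84% and 18% of all 14665 tested probe sets were called, so the 8.97% of members called lower was close to the background. The median difference was -0.25 in these 78 and 0.16 over all tested probe sets. The caesium-treated arrays lay entirely below the potassium-starved arrays for 14 of the 78, against 15.7% of all tested probe sets, and entirely above for 3, against 28.8%. Replicate numbers paired the shoot samples. With the replicate as a block 13 members were called lower, where 12.4% of all tested probe sets were, against 8.84% without the block. The other shoot calls, and the adjusted p of each named member, come from fits without the block, apart from ranges over the alternatives. Leaving out potassium-starved shoot replicate 2, the array that stood apart, left 4 called lower and 0 higher, and leaving out potassium-starved shoot replicate 1 or any 1 caesium-treated shoot array likewise left 4 called lower, with 4.59% to 7.25% of all tested probe sets called lower in these fits. Without any 1 caesium-treated shoot array 0 were called higher, and without potassium-starved shoot replicate 3 there were 2.

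MSRB9, the named member with the smallest tissue difference, was also the one with the largest called difference in shoots. Its shoot signals were 91.6, 157 and 119 under caesium, 991, 1256 and 498 under potassium starvation and 69.3, 124 and 46.3 in controls. All 3 potassium-starved arrays lay above every other shoot array, while its 3 root groups overlapped. MSRB9 fell by 2.84 ± 0.41 on the log2 scale (limma adjusted p = 0.00217) in caesium-treated against potassium-starved shoots, and the call held in all 18 alternatives, at adjusted p from 3.72e-05 to 0.0117. Without potassium-starved shoot replicate 2 the difference was -2.56 (limma adjusted p = 0.01).

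AT2G37750 was the only named member called in both tissues, and it was lower under caesium in each. Its shoot signals were 51.1, 70.2 and 54.1 under caesium, 91.3, 357 and 106 under potassium starvation and 25.0, 20.0 and 22.5 in controls. The 3 groups did not overlap, but 1 potassium-starved array stood far above the other 2. AT2G37750 fell by 1.38 ± 0.42 (limma adjusted p = 0.0359), and by 0.76 without potassium-starved shoot replicate 2 (adjusted p = 0.0435). It missed the threshold without caesium-treated shoot replicate 1, 2 or 3 (adjusted p = 0.104, 0.0561 and 0.0917) and with no filter (0.0565). The lipid transfer protein gene AT3G22620 had 29.7, 49.2 and 60.6 in caesium-treated shoots and 118, 171 and 55.0 in potassium-starved shoots, which overlap, and its difference of -1.22 ± 0.43 was not called (limma adjusted p = 0.0598). It was called in 6 of the alternatives, with limma adjusted p from 0.0146 to 0.364.

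The other named members with the smallest p in shoots were likewise not called in the main fit. They were AT4G30670, AT3G14280, AT4G31875, AT3G54040, AT2G29995, whose product belongs to the PSY family of secreted peptides, AT5G40510 and AT4G33420, with log2 differences from -1.08 to -0.46. AT4G30670 was called in 5 alternatives (limma adjusted p from 0.0349 to 0.356) and AT3G14280 in 4 (0.0265 to 0.28), the rest in none. Among the called probe sets without a gene name, 250090_at had the largest difference, with 41.3, 52.6 and 45.4 in caesium-treated shoots, 553, 267 and 252 in potassium-starved shoots and 21.8, 17.9 and 4.78 in control shoots, a difference of -2.85. The single called rise was in 258293_at, at 0.88. Both were picked after their values were seen.

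**Figure D5:**
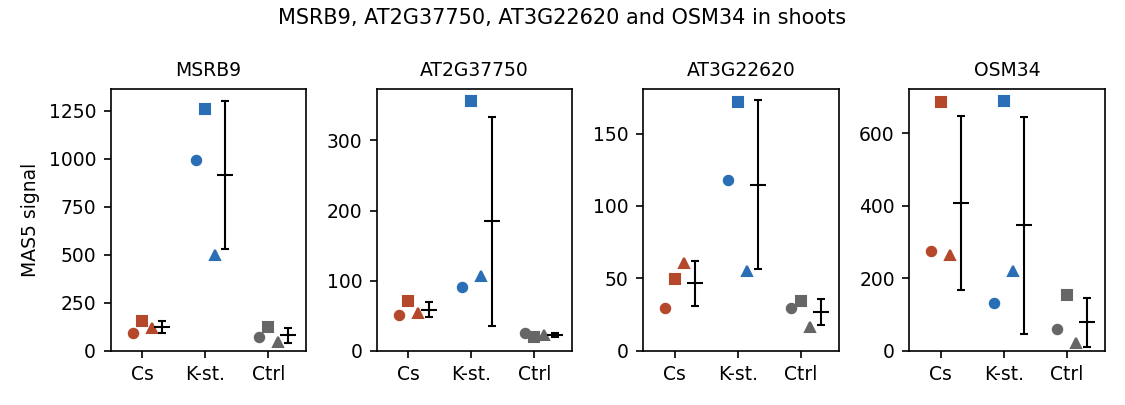
Linear MAS5 signal (vertical axes, each from 0) of MSRB9, AT2G37750, AT3G22620 and OSM34 in caesium-treated (Cs), potassium-starved (K-st.) and control (Ctrl) shoots. Circles, squares and triangles are replicates 1, 2 and 3, and the bar is mean ± SD (n = 3). MSRB9 reaches 498 to 1256 in potassium-starved shoots and stays at or below 157 elsewhere.

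Whether the caesium against potassium difference itself differed between roots and shoots was asked with an interaction term fitted to the 18 arrays together. The test called 6 members higher in roots than in shoots for this difference and 4 lower, or 3.45% and 2.3% of the members. Over all tested probe sets 4.17% and 5.58% were called. All 174 members entered this fit through their root arrays, but only 78 passed the filter on low signal in the 9 shoot arrays. Of the called members, only MSRB9, AT5G48430 and a probe set without a gene name were among those 78. For the other called members the shoot part of the difference rests on low signals, so the counts do not establish a tissue difference. MSRB9 had the difference of 0.01 in roots and -2.84 in shoots, an interaction of 2.84 ± 0.46 (limma adjusted p = 0.0025). AT5G48430 had -2.08 in roots, against shoot signals of 22.7, 31.0 and 19.2 under caesium and 29.9, 47.4 and 21.4 under potassium starvation, an interaction of -1.69 ± 0.35 (limma adjusted p = 0.00825). AT5G59680 had an interaction of -3.42 ± 0.71 (limma adjusted p = 0.009), with shoot signals of 47.4, 14.8 and 26.0 under caesium and 1.92, 3.59 and 12.2 under potassium starvation, a range where the signal is too low to give a dependable ratio.

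The remaining interactions near the top were not called in the main fit. Among the alternatives, AT3G22620 was called in 9, AT4G08380 in 7 and AT5G07080 in 5. AT2G43610 and AT3G51330 were called in 2 each, and AT1G29020 and AT4G15390 in 1 each. AT3G22620 had 1.63 ± 0.50 (limma adjusted p = 0.0506) and AT4G08380 -2.29 ± 0.71 (limma adjusted p = 0.0508). AT5G07080 followed at -1.18 ± 0.39, AT1G29020, an EF-hand calcium-binding protein gene, at 0.60 ± 0.24, AT2G43610 at 1.15 ± 0.48, AT3G51330 at -1.74 ± 0.73 and AT4G15390 at -1.87 ± 0.85. For AT3G51330 the shoot signals ran from 39.4 to 75.4 under caesium and from 19.0 to 42.9 under potassium starvation, so the sign in shoots was opposite to that in roots, but the interaction missed the threshold (limma adjusted p = 0.136).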

How the data were processed

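The authors deposited 1 linear signal intensity for each probe set, computed with MAS5 per the submitters' processing notes. Its version and settings are not given in the labels. MAS5 subtracts mismatch probes, which makes low signals noisy on a log scale. The 64 array control probe sets were dropped. Signals were taken to log2 without a pseudocount. Testing required a signal above the array's own 40th percentile on at least 3 arrays of a fit. Roots and shoots were fitted apart (9 arrays each), and tissue differences and the interaction on all 18, with limma 3.58.1 under R 4.3.3 (moderated tests with an intensity trend, two-sided, Benjamini-Hochberg adjustment within a comparison over all probe sets tested). The fits were tested on simulated data. The precision is limited by the number of arrays.

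Members, lists and the naming rule were chosen with earlier results of these data known. The rule takes probe sets with 1 gene. It names the 10 highest in control roots, the called members in roots, the 10 with the smallest p in shoots and for the interaction (fewer than 5 named members being called there), the 5 largest and smallest tissue differences, up to 4 members of each list, the members nearest the limits, and those with 1 array far from its group. All 85 such members matched a RefSeq gene of TAIR10.1. Same-numbered shoot samples deviated together (correlation of deviations 0.203 to 0.639 in all 9 pairs), so the title numbers were taken to pair them. In roots they did not all do so (-0.05 to 0.51). The alternatives were a pseudocount of 16, other filters, 2 normalizations, a replicate block, array weights, leaving out each array, sharing the spread over other arrays, and limits of 8 or 32 times.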

Additional observations from a re-analysis of the deposited data

Results flagged for a closer look

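For 3 named members the caesium against potassium difference was not the same in roots and shoots by the limma interaction test. MSRB9 differed by 2.84 on the log2 scale between the tissues, AT5G48430 by -1.69 and AT5G59680 by -3.42. The first rests on a shoot signal of 498 to 1256 in potassium-starved plants. AT5G48430 changed in roots, with shoot signals at or below 47.4. AT5G59680 had shoot signals as low as 1.92, and the part of that low signal in the result was not tested. Under the alternatives the interaction ran at adjusted p from 0.000325 to 0.00908 for MSRB9, from 0.000676 to 0.0311 for AT5G48430 and from 0.000365 to 0.0257 for AT5G59680.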

How the results depend on the processing

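No called named member changed direction under any alternative, while uncalled members near 0 did, such as AT1G52050 in roots (-0.02 with a common median, 0.06 in the main setting). In roots, the 17 members called lower became 11 with no filter, 44 with the replicate block, 45 with array weights, 7 with all 18 arrays in 1 fit and 28 of 270 with members at 8 times, and 7 to 20 when leaving out 1 array. Over all tested probe sets 2.27% were called lower, against 1.09% with no filter, 4.72% with the block, 7.59% with weights and 1.52% with all 18 arrays. The 2 called higher became 5, 7, 0 and 4 with the block, weights, all 18 arrays and members at 8 times, and 0 to 4 leaving out 1 array. Only 7 of 9 same-numbered root pairs correlated above 0.1, so the numbers were not taken to pair the root samples, though replicate 1 had the lowest member median in every root group. In shoots, the 7 called lower became 11 with a common median, 13 with the block, 21 with all 18 arrays, where all 174 were tested (10.1% over all probe sets), 19 and 4 at 8 and 32 times, and 4 to 9 leaving out 1 array. The 1 called higher became 2 with the pseudocount, no filter or weights, 0 with the 60th percentile filter, quantile normalization, a common median or 32 times, 4 with all 18 arrays, 6 at 8 times, and 0 to 2 leaving out 1 array.

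Over all probe sets in shoots, 2638 were called higher and 1297 lower, against 1524 and 2331 with a common median and 2014 and 1619 with quantile normalization. The common median moved the median of all tested probe sets to -0.11 there, against 0.16. In roots the split was 328 higher and 327 lower, against 252 and 454 with a common median.

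The tissue difference kept its direction. For potassium-starved plants 265 of 270 members at 8 times and 107 at 32 times were called higher, and the median of 4.96 became 3.99 with the pseudocount, 4.84 with quantile normalization, 4.78 with a common median, 4.24 and 6.21 at 8 and 32 times, and 4.78 to 5.07 leaving out 1 array. For caesium-treated plants 268 and 107 were called, and the median of 4.87 became 3.88, 4.20 and 5.94 with the pseudocount, 8 times and 32 times, and 4.80 to 5.05 leaving out 1 array. The interaction gave 11 higher and 12 lower at 8 times, 10 lower with the pseudocount, 7 lower with the block and 2 to 6 lower leaving out 1 array. Its median of -0.10 turned to 0.13 with quantile normalization and 0.085 with a common median, and ran from -0.32 to 0.12 leaving out 1 array, above 0 without caesium-treated shoot replicate 2 (0.08) or potassium-starved shoot replicate 1 (0.12) or 3 (0.09). The causes were not tested. Signals near the array background limit many shoot ratios, and 54 members were below the 40th percentile on all 6 treated shoot arrays.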
